A study of Mus musculus with 30 samples.

Results

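Oral dysplasia, in which the layers of the squamous lining have become disordered without yet forming a carcinoma, was compared with normal tissue by RNA sequencing. The comparison took the 7 samples labelled dysplasia (codes B01 to B07) and the 3 labelled normal (D01 to D03), out of 30 mouse samples in the series, and covered all genes. The samples came from male C57BL/6J mice of a model in which 4-nitroquinoline-1-oxide (4NQO), a water-soluble carcinogen, induces oral squamous cell carcinoma. One treatment text stands on every sample, normal ones included: 4NQO at 100 ug/mL in the drinking water for 10 weeks, begun at 6 weeks of age. It therefore cannot be read from the labels whether the normal group drank the carcinogen, and the tissue label names the carcinoma for all samples as well. Nothing in the labels ties each sample to a mouse of its own, so each p-value describes how these samples vary, which may be technical. The neighbouring stages, 8 hyperplasia and 6 carcinoma in situ samples under the same treatment text, were compared with dysplasia at the end. The 6 invasive carcinoma samples were compared with no stage. They entered the gene filter, the scaling, the shared estimate of spread and the fits with a tissue score described below.

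The oral lining is a stratified squamous epithelium. Its basal cells divide, and the cells above them stop dividing, fill with differentiation keratins and build a cross-linked envelope and a lipid seal at the surface. When such an epithelium is injured or inflamed, its keratinocytes switch to another keratin set, release alarmins and cytokines of the interleukin-1 family and draw in immune cells. 4NQO is reduced in cells to a product that forms bulky DNA adducts, and its metabolism generates reactive oxygen species. The transcription factor NRF2 answers such stress by raising glutathione synthesis and detoxification enzymes, and p53 answers DNA damage.

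Levels are CPM, the counts of a gene scaled to a common library total and adjusted with the normalization factors of the fit. Normal values are given for D01, D02 and D03 in that order, and dysplasia values as the range and median of 7 samples. A change is a log2 fold change, dysplasia minus normal, ± 1 standard error, and a gene is called at an adjusted p under 0.05 (edgeR quasi-likelihood test, Benjamini-Hochberg over 17638 genes). Library totals were 19926988 to 24163924 counts in normal tissue and 19753677 to 24684124 in dysplasia. Keratins of an oral squamous lining were abundant in both groups: Krt13, a keratin of its upper layers, had 22740, 18050 and 26910 CPM in normal tissue and 19300 to 31280 CPM (median 28600) in dysplasia, and its partner Krt4 had 18640, 14470 and 23250 CPM in normal tissue and 12070 to 21360 CPM (median 20490) in dysplasia. Neither differed by the test, with log2 fold changes of 0.29 ± 0.19 (adjusted p = 0.262) and -0.01 ± 0.25 (adjusted p = 0.984).

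Other tissue in the samples moved with the comparison. The summed level of the 34 tested skeletal muscle genes was 76000, 104000 and 80700 CPM in the normal samples and 37100 to 67300 CPM in dysplasia, with no overlap. Mitochondrial transcripts took 10.7%, 13.7% and 10.4% of the counts in normal tissue and 5.95% to 7.98% in dysplasia. Basal keratinocyte genes summed to 5340 to 6780 CPM in normal tissue and 6470 to 11300 CPM in dysplasia. Salivary gland genes varied within both groups, with 19300 CPM in D01 against 105 and 178 in D02 and D03, and 35.1 to 45000 CPM in dysplasia, highest in B01. The muscle share therefore accompanies each result below, and its part in them was examined only by adding the muscle score of each sample to the fit as a covariate. Because the muscle sums do not overlap between the groups, that score is partly tied to the comparison itself. A call lost with the covariate can reflect this tie as well as muscle content. In bulk tissue, fewer cells of a type and less RNA per cell cannot be told apart. The code letters follow the stages, so a batch that follows the letters cannot be told apart from dysplasia.

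**Figure D1:**
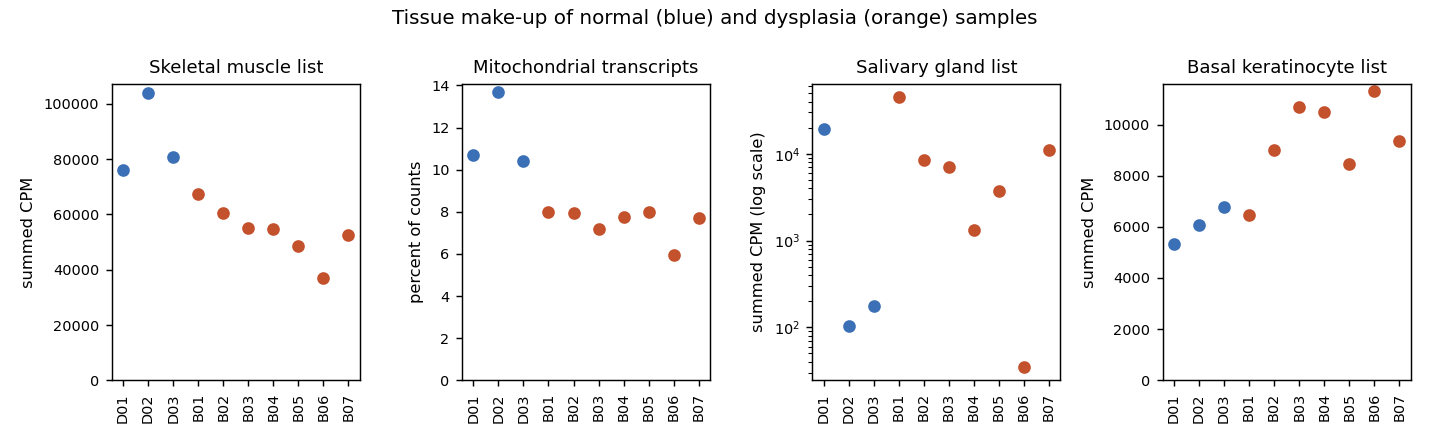
Summed CPM of 3 marker lists (the salivary axis is logarithmic) and percent of counts from mitochondrial transcripts, 1 point per sample, normal in blue and dysplasia in orange. All 7 dysplasia samples lie below all 3 normal samples for skeletal muscle and for mitochondrial transcripts, and D02 has the highest muscle sum, 104000 CPM.

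Dysplasia differed from normal tissue in 4540 of 17638 genes (25.7%): 2345 were higher (13.3%) and 2195 lower (12.4%). Most differences were small, with a median size of 0.52 on the log2 scale among called genes, and the changes beyond 2-fold lay mainly upward: 506 genes were at least 2-fold higher (2.87%) and 204 at least 2-fold lower (1.16%). The 2 groups did not overlap in 2048 genes with dysplasia higher (11.6%) and in 1578 with dysplasia lower (8.95%). Without the normal sample D02, which is richest in muscle transcripts, 682 genes were called higher and 600 lower. With the muscle score as a covariate 475 were called higher and 114 lower, and 547 of the 4540 genes were called again in the same direction. List counts of this comparison are therefore given with the covariate too where it changes them, and without a sample where that moves them by over 1.5 times. For single genes given with their values, a call that ended with the covariate or without any of the 10 samples is named at the end of its paragraph, with its log2 fold change in that fit.

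**Figure D2:**
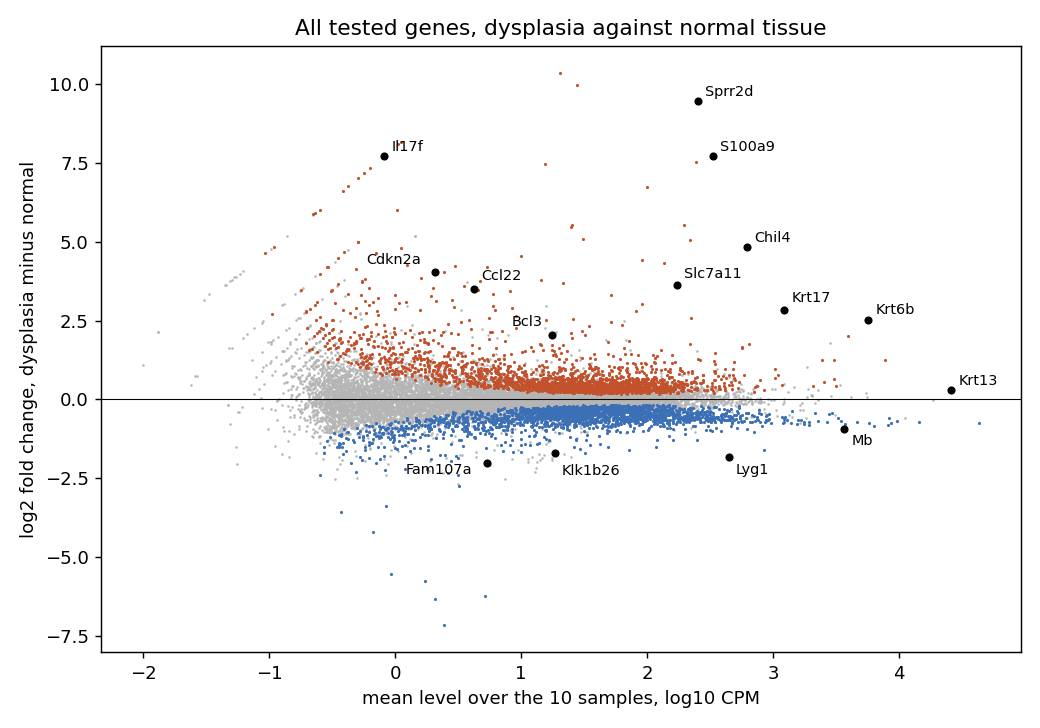
Log2 fold change (dysplasia minus normal) of each of 17638 tested genes against its mean level over the 10 samples in log10 CPM. Genes called higher are orange, genes called lower blue and genes not called grey. The points in black are labelled genes, and all but Chil4, Lyg1 and Fam107a are described in the text. The largest changes are increases, with Sprr2e at 10.34, and most called genes lie within 1 log2 unit of 0. Sprr2 levels in normal tissue were low, with no read for 2 of the genes, so the size of that largest change is uncertain.

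Alarmins and small proline-rich proteins stood among the largest increases, and injury keratins were higher by smaller amounts. Of the injury keratin and alarmin list, 10 of 15 tested members were higher and none lower (median log2 fold change 1.64, against 0.012 over all genes), 7 without D02 and 6 with the muscle covariate. Krt6b, a keratin of wounded and hyperproliferative epithelium (ENSMUSG00000023041.7, GRCm38 chromosome 15, 101676023 to 101680287), had 1657, 948 and 1311 CPM in normal tissue and 4893 to 9274 CPM (median 8308) in dysplasia, a log2 fold change of 2.53 ± 0.27 (adjusted p = 1.99e-06). Krt17, its companion in wounds, had 279, 153 and 254 CPM in normal tissue and 986 to 2905 CPM (median 1633) in dysplasia and changed by 2.85 ± 0.47 (adjusted p = 0.000241). Krt6a, the paralog of Krt6b, had 4130, 3429 and 4359 CPM in normal tissue and 5776 to 12140 CPM (median 10000) in dysplasia and changed by 1.24 ± 0.20 (adjusted p = 0.000207). All dysplasia samples were above all normal samples for the 3 keratins, and Krt6a and Krt6b share sequence, so reads may be split between them. Krt14, the keratin of basal cells, had 1343, 1518 and 1765 CPM in normal tissue and 2317 to 4950 CPM (median 3747) in dysplasia and changed by 1.26 ± 0.29 (adjusted p = 0.00333). Chil1, a secreted chitinase-like protein of inflamed epithelium, had 1.73, 1.35 and 0.967 CPM in normal tissue and 41.6 to 222 CPM (median 162) in dysplasia, a change of 6.73 ± 1.34 (adjusted p = 0.00136). Uox, which encodes urate oxidase, an enzyme known from liver, had 0.976, 0.732 and 0.616 CPM in normal tissue and 18.8 to 59.3 CPM (median 32.7) in dysplasia and changed by 5.54 ± 1.44 (adjusted p = 0.00767). No dysplasia value of these 3 genes reached down to a normal one. With the muscle score as a covariate, the call was lost for Krt14 (0.58, adjusted p = 0.238) and Uox (5.66, adjusted p = 0.0631). Leaving out one sample ended the call for Uox without D02 (5.51, adjusted p = 0.0564).

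Small proline-rich 2 proteins are cross-linked into the cornified envelope and are induced in stressed epithelia from a gene cluster on chromosome 3. Of this list 10 of 11 tested members were higher and none lower (median 5.54), 8 without D02 and 9 with the muscle covariate, and their summed level was 19.1 to 36.4 CPM in normal tissue and 579 to 1890 CPM in dysplasia. Sprr2i had 7.97, 4.45 and 5.67 CPM in normal tissue and 163 to 423 CPM (median 288) in dysplasia, a log2 fold change of 5.54 ± 0.90 (adjusted p = 0.000268). Sprr2h had 7.04, 3.49 and 6.99 CPM in normal tissue and 66.2 to 171 CPM (median 134) in dysplasia and changed by 4.43 ± 0.75 (adjusted p = 0.000345). Sprr2g had 0.488, 0.788 and 1.05 CPM in normal tissue and 24.4 to 42.7 CPM (median 38.6) in dysplasia and changed by 5.47 ± 0.95 (adjusted p = 0.000425). Each of the 3 was higher in all 7 dysplasia samples than in any normal sample. The paralogs are similar in sequence, so the split of reads between them is uncertain. Of the 12 largest increases that reach a mean of 10 CPM in dysplasia, 5 hold the AP-1 motif TGANTCA, on either strand, in the 300 bases around the gene start (250 before, 50 after; RefSeq, GRCm38.p6), and all 5 are Sprr2 genes. The motif is present in 7.93% of all 27025 such windows. The windows of Sprr2d (chr3:92338890-92339189, plus strand) and Sprr2i (chr3:92407741-92408040, plus strand) show the shared element, in capitals, at the same distance from the start; they were chosen for printing after their values were seen.
Sprr2d: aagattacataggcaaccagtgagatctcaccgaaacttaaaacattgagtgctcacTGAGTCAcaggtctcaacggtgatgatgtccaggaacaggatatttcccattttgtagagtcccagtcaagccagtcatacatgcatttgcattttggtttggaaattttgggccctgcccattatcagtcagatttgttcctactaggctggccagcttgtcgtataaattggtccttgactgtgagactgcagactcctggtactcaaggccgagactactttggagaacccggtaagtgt
Sprr2i: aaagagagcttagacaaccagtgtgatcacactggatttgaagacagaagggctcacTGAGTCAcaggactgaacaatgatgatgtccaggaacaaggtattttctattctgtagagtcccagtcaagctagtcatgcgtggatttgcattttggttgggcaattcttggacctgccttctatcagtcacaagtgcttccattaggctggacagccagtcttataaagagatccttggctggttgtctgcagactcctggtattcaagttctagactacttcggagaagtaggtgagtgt

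The surface barrier genes moved only in part. Of the lipid barrier list, whose products make and export the ceramides of the surface seal, 15 of 23 were higher and 1, Cers4, lower (median 0.49), 5 higher without D02 and 5 with the muscle covariate. Cers4 was not called without D03 or with the covariate. Elovl1, which lengthens fatty acids for ceramides, had 199, 157 and 198 CPM in normal tissue and 235 to 355 CPM (median 324) in dysplasia and changed by 0.78 ± 0.13 (adjusted p = 0.000277). Abca12, the lipid transporter of lamellar granules, had 156, 109 and 160.1 CPM in normal tissue and 176 to 348 CPM (median 264) in dysplasia and changed by 0.91 ± 0.16 (adjusted p = 0.000394). Degs2, which makes phytoceramides, had 0.596, 0.845 and 1.63 CPM in normal tissue and 5.2 to 12 CPM (median 8) in dysplasia and changed by 2.96 ± 0.47 (adjusted p = 0.000216). All dysplasia samples were above all normal samples for these 3 genes. Tgm1, the transglutaminase that cross-links the envelope, had 322, 237 and 309 CPM in normal tissue and 400.5 to 670.2 CPM (median 563) in dysplasia and changed by 0.97 ± 0.16 (adjusted p = 0.000268). Casp14, the caspase of cornifying cells, had 10.3, 7.15 and 10.2 CPM in normal tissue and 15.2 to 31.2 CPM (median 27.4) in dysplasia and changed by 1.48 ± 0.26 (adjusted p = 0.000376). Both stood above the normal range throughout. The cornified envelope list held 4 members higher and 1 lower among 26 (median 0.33), against 13.3% higher and 12.4% lower over all genes. The higher members were Tgm1, Tgm3, Casp14 and Sprr1a, and the lower one was Calml3. The count of higher members was 2 without D02 and 8 without B01, and 2 with the muscle covariate. Tgm3, Sprr1a and Calml3 were not called without D02 or with the covariate, Calml3 also not without D03, and Sprr1a also not without D01, B03 or B06. Loricrin (Lor), a main envelope protein, had 2338, 1232 and 2213 CPM in normal tissue and 1361 to 3295 CPM (median 1985) in dysplasia and overlapped between the groups (log2 fold change 0.12 ± 0.29, adjusted p = 0.803). Among the 11 oral suprabasal keratins none was called in either direction by edgeR or DESeq2. At an unadjusted p under 0.05 there were 2 lower, and limma-voom called 3 lower.

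Part of the desmosome genes were higher, and tight and gap junction genes were called at shares close to those over all genes. Of 13 tested desmosome genes, which bind keratinocytes to each other, 8 were higher and none lower (median 0.44), and the count fell without single samples. It was 4 without D01, 0 without D02, 4 without D03, 3 without B03, 4 without B06 and 5 without B07, and 0 with the muscle covariate. Dsg3, the desmoglein of lower layers, had 189, 202 and 243 CPM in normal tissue and 274 to 448 CPM (median 413) in dysplasia and changed by 0.90 ± 0.23 (adjusted p = 0.0058). Of 17 tight and gap junction genes 3 were higher and 3 lower, against 13.3% higher and 12.4% lower over all genes. The higher count was 0 without D02, 1 without D03 and 1 without B07, and 0 with the muscle covariate. Gjb5, a connexin of stratified epithelium, had 10.7, 15.8 and 15.9 CPM in normal tissue and 4.72 to 10.4 CPM (median 8.79) in dysplasia and changed by -0.77 ± 0.17 (adjusted p = 0.00253). Cldn23, a claudin, had 12.5, 11.8 and 10.9 CPM in normal tissue and 4.89 to 6.79 CPM (median 6.21) in dysplasia and changed by -0.96 ± 0.20 (adjusted p = 0.00162). All dysplasia samples lay below all normal samples for both. Gjb2, another connexin, moved the other way: it had 269, 223 and 280.4 CPM in normal tissue and 389 to 814 CPM (median 554) in dysplasia, a change of 1.18 ± 0.31 (adjusted p = 0.00761), and did not overlap either. The muscle score as a covariate ended the call for Dsg3 (0.45, adjusted p = 0.31) and Gjb2 (0.41, adjusted p = 0.41). One left-out sample was enough to end the call for Dsg3 without D02 (0.87, adjusted p = 0.0547) and Gjb2 without D02 (1.09, adjusted p = 0.0743).

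Factors that set squamous identity, and proteases of the shedding surface, were higher in part. Of 26 squamous lineage transcription factors 8 were higher and 2, Elf5 and Foxe1, lower, with 2 higher and 0 lower without D02 and 2 higher and 0 lower with the muscle covariate. The lower pair fell to 1 or 0 when D01, D03, B01, B03, B04 or B05 was left out. Cebpa, which promotes exit from the cell cycle, had 39.4, 27 and 33.6 CPM in normal tissue and 43.9 to 66.3 CPM (median 55.4) in dysplasia and changed by 0.76 ± 0.13 (adjusted p = 0.000268). It exceeded the normal range in all 7 samples. Trp63, the master factor of basal squamous cells, had 155, 182 and 212 CPM in normal tissue and 188 to 294 CPM (median 279) in dysplasia and changed by 0.54 ± 0.17 (adjusted p = 0.0193). Of 10 squamous kallikreins, serine proteases that loosen surface cells, 6 were higher and none lower, 2 without D02 and 1 with the covariate. Klk14 had 388, 325 and 450.4 CPM in normal tissue and 406 to 851 CPM (median 687) in dysplasia and changed by 0.79 ± 0.18 (adjusted p = 0.00273). B01 was the lowest dysplasia sample for Trp63 and Klk14 and the only one inside the normal range. In the fit with the muscle score, calls were lost for Trp63 (0.14, adjusted p = 0.714) and Klk14 (0.53, adjusted p = 0.144). The call rested on single samples for Trp63 without D01 (0.45, adjusted p = 0.112) and Trp63 without D02 (0.54, adjusted p = 0.104).

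**Figure D3:**
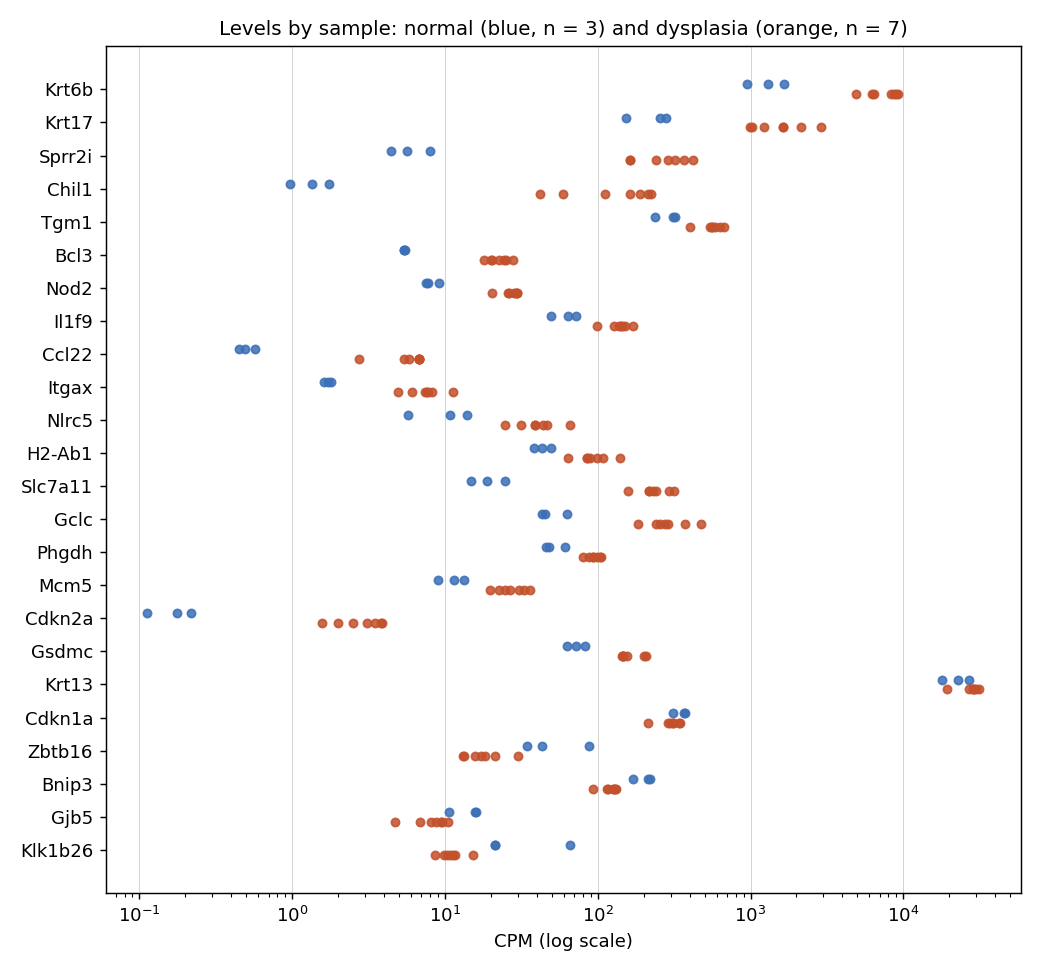
Level of 24 genes in each sample on a logarithmic CPM axis, normal in blue (n = 3) and dysplasia in orange (n = 7). The groups are apart for most genes and overlap for Krt13 and Cdkn1a; the bottom 4 genes, Zbtb16 to Klk1b26, are lower in dysplasia.

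Among the smallest adjusted p-values stood genes of NF-kB signalling and innate sensing, a grouping made after their values were seen. Bcl3, an IkB-family protein that acts in the nucleus with NF-kB (ENSMUSG00000053175.17, GRCm38 chromosome 7, 19808462 to 19822770), had 5.37, 5.41 and 5.5 CPM in normal tissue and 18 to 27.7 CPM (median 22.7) in dysplasia, a change of 2.06 ± 0.24 (adjusted p = 4.13e-06). Nod2, a sensor of bacterial peptidoglycan (ENSMUSG00000055994.15, GRCm38 chromosome 8, 88647315 to 88688474), had 7.7, 7.49 and 9.14 CPM in normal tissue and 20.4 to 29.7 CPM (median 28.2) in dysplasia and changed by 1.73 ± 0.20 (adjusted p = 4.13e-06). Plcg2, a phospholipase that relays signals of immune receptors, had 14.3, 11.8 and 16.1 CPM in normal tissue and 25.7 to 35.1 CPM (median 30.7) in dysplasia and changed by 1.11 ± 0.13 (adjusted p = 4.13e-06). The 3 normal values of each gene lay close together, and every dysplasia value lay above them. The long noncoding gene AI506816 had 47.3, 41.8 and 56 CPM in normal tissue and 97 to 114 CPM (median 107) in dysplasia and changed by 1.15 ± 0.13 (adjusted p = 4.13e-06). Mir17hg, the host of a microRNA cluster that promotes proliferation, had 4.07, 2.87 and 3.12 CPM in normal tissue and 5.25 to 10.2 CPM (median 7.29) in dysplasia and changed by 1.10 ± 0.24 (adjusted p = 0.00251). Neat1, the noncoding scaffold of paraspeckles, had 604, 538 and 583 CPM in normal tissue and 660.2 to 1019 CPM (median 892) in dysplasia and changed by 0.62 ± 0.14 (adjusted p = 0.00349). The 3 noncoding genes lay above the normal range in all dysplasia samples. Once the muscle score was in the fit, the test was missed by Mir17hg (0.74, adjusted p = 0.131).

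Part of the interleukin-17 list and fewer members of the interleukin-1 and interleukin-36 list were higher. Of the interleukin-17 list 10 of 19 tested members were higher and 1 lower (median 2.37), 6 higher without D02 and 5 higher and 0 lower with the muscle covariate. Il17f, a cytokine of type 17 lymphocytes, had no read in the 3 normal libraries, where a count of 0 allows up to 0.0508 CPM, and had 0.131 to 1.91 CPM (median 1.34) in dysplasia (adjusted p = 0.00506). Il12b, the subunit shared by interleukin-12 and interleukin-23, likewise had no read in normal tissue and 0.0437 to 1.53 CPM (median 0.671) in dysplasia (adjusted p = 0.00191). In both cases B01 had the lowest dysplasia value, and the fitted fold changes against 0 are not given. Downstream, Zc3h12a, an RNase that limits interleukin-17 signals, had 17.8, 13.6 and 17.3 CPM in normal tissue and 47.1 to 119 CPM (median 83.5) in dysplasia and changed by 2.37 ± 0.34 (adjusted p = 8.73e-05). Traf3ip2, the adaptor of the interleukin-17 receptor, had 21.6, 17.1 and 18.6 CPM in normal tissue and 26.1 to 30.2 CPM (median 28.1) in dysplasia and changed by 0.56 ± 0.10 (adjusted p = 0.000327). Both were above every normal value in all 7 dysplasia samples. In the interleukin-1 and interleukin-36 list 5 of 18 were higher (Il1f6, Il1f9, Il1b, Il1rn and Casp1) and 1, Nlrp10, lower. The higher count was 3 without D02 and 8 without B01, and 2 with the muscle covariate. Nlrp10 was not called without D01, without D03 or with the covariate. Il1f9 (interleukin-36 gamma), an epithelial cytokine, had 71.9, 49.3 and 64.3 CPM in normal tissue and 99.3 to 171 CPM (median 142) in dysplasia and changed by 1.17 ± 0.21 (adjusted p = 0.000464). Il1f6 (interleukin-36 alpha) had 84.9, 69.2 and 93.2 CPM in normal tissue and 173 to 353 CPM (median 279.6) in dysplasia and changed by 1.76 ± 0.39 (adjusted p = 0.00256). Casp1, the protease that activates interleukin-1 beta, had 37.6, 28.7 and 30.7 CPM in normal tissue and 43.5 to 64.9 CPM (median 61) in dysplasia and changed by 0.84 ± 0.15 (adjusted p = 0.000494). All 7 dysplasia samples exceeded the normal samples in each. Il1a, an alarmin of keratinocytes, had 10.2, 5.86 and 12.8 CPM in normal tissue and 10.6 to 23.4 CPM (median 18) in dysplasia and was not called (log2 fold change 0.88 ± 0.37, adjusted p = 0.0778). Il17f (adjusted p = 0.0869) was not called with the muscle covariate, while Il12b was (adjusted p = 0.0211). Calls that ended with the muscle score as a covariate were those of Il1f6 (1.39, adjusted p = 0.107).

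Other epithelial effectors also changed. Gsdmc, a pore-forming gasdermin, had 72, 63.3 and 82 CPM in normal tissue and 143 to 208 CPM (median 147) in dysplasia and changed by 1.18 ± 0.17 (adjusted p = 8.73e-05). It was one of 3 gasdermins called higher among 5 (with Gsdma and Gsdmc2), or 1 without D02. Duox1, an oxidase that releases hydrogen peroxide at the surface, had 69.5, 63 and 87.1 CPM in normal tissue and 96.9 to 157 CPM (median 140.3) in dysplasia and changed by 0.89 ± 0.15 (adjusted p = 0.000347). Pla2g4e, a phospholipase, had 60.6, 42.4 and 51.7 CPM in normal tissue and 94.2 to 137 CPM (median 113) in dysplasia and changed by 1.16 ± 0.19 (adjusted p = 0.00028). Pla2g2f, a secreted phospholipase, had 36.7, 39.3 and 40.5 CPM in normal tissue and 16.1 to 24.1 CPM (median 22.2) in dysplasia and changed by -0.89 ± 0.17 (adjusted p = 0.00092). Dysplasia and normal values did not overlap for any of the 4.

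Antigen presentation genes were higher in dysplasia while few members of the interferon response list were called. Of 21 tested MHC class I and peptide loading genes 15 were higher and none lower (median 0.66), 4 without D02 and 13 with the muscle covariate. Of 12 class II genes 9 were higher (median 0.95), 6 without D02 and 8 with the covariate. H2-K1, a class I heavy chain, had 205, 122 and 199 CPM in normal tissue and 228 to 582 CPM (median 397) in dysplasia and changed by 1.22 ± 0.21 (adjusted p = 0.000287). Ciita, the master regulator of class II genes, had 3.09, 2.25 and 2.33 CPM in normal tissue and 4.54 to 8.82 CPM (median 5.85) in dysplasia and changed by 1.26 ± 0.24 (adjusted p = 0.000764). Its target H2-Ab1, a class II chain, had 38.5, 43.2 and 49.7 CPM in normal tissue and 64.2 to 139 CPM (median 88.8) in dysplasia and changed by 1.12 ± 0.22 (adjusted p = 0.000875). Every dysplasia sample was above every normal sample for these 3. Of 29 interferon response genes 2 were called higher, Mx1 and Oas1g, and none lower (median 0.27), against 13.3% and 12.4% over all genes. The higher count was 0 without D01, 0 without D02, 0 without D03, 0 without B02, 4 without B03, 4 without B04 and 1 without B07. The direction depended on the tool: DESeq2 called 4 higher and 0 lower, and limma-voom 0 higher and 2 lower. Isg15, an interferon-induced ubiquitin-like protein, had 18.6, 21.7 and 23.6 CPM in normal tissue and 5.8 to 43.5 CPM (median 14.9) in dysplasia (log2 fold change -0.41 ± 0.43, adjusted p = 0.526), with B02 highest. Socs1, a brake on interferon and cytokine signals, had 0.65, 0.845 and 0.747 CPM in normal tissue and 1.88 to 2.6 CPM (median 2.1) in dysplasia and changed by 1.52 ± 0.25 (adjusted p = 0.000241). Cxcl10, a chemokine induced by interferon gamma, had 0.434, 0.282 and 0.703 CPM in normal tissue and 1.97 to 21.7 CPM (median 4.58) in dysplasia and changed by 3.75 ± 0.81 (adjusted p = 0.00214), again with the highest value in B02.

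Part of the dendritic cell markers and of the regulatory T cell and checkpoint genes were higher, at low levels. Of 16 dendritic and Langerhans cell markers 5 were higher and none lower (median 0.72): Itgax, Cd207, Ccr7, Ccl22 and Ccl17. The count was 4 without D02, 8 without D01 and 4 with the muscle covariate. Their summed level was 65.2 to 86.4 CPM in normal tissue and 77.8 to 199 CPM in dysplasia. Ccl22, a chemokine of dendritic cells that attracts regulatory T cells (ENSMUSG00000031779.3, GRCm38 chromosome 8, 94745590 to 94751699), had 0.488, 0.451 and 0.572 CPM in normal tissue and 2.72 to 6.79 CPM (median 6.72) in dysplasia and changed by 3.51 ± 0.36 (adjusted p = 1.7e-06). Itgax, the dendritic integrin CD11c, had 1.63, 1.8 and 1.72 CPM in normal tissue and 4.9 to 11.3 CPM (median 7.68) in dysplasia and changed by 2.15 ± 0.24 (adjusted p = 4.13e-06). Cd207, the lectin langerin of Langerhans cells, had 1.3, 1.86 and 2.2 CPM in normal tissue and 3.28 to 6.25 CPM (median 5.25) in dysplasia and changed by 1.49 ± 0.36 (adjusted p = 0.00457). The 3 normal samples were low for each, and B06 was the lowest dysplasia sample in all 3. Of 19 regulatory T cell and checkpoint genes 12 were higher and 1, Ikzf2, lower (median 1.08), 6 without D02 and 8 with the covariate. The lower count was 2 without B01 and 2 without B05, and 0 with the covariate. Il2ra, the interleukin-2 receptor chain of activated and regulatory T cells, had 0.976, 1.01 and 1.14 CPM in normal tissue and 1.38 to 3.16 CPM (median 2.09) in dysplasia and changed by 1.06 ± 0.25 (adjusted p = 0.00398). Havcr2, which encodes the inhibitory receptor TIM-3, had 0.488, 0.394 and 0.791 CPM in normal tissue and 0.948 to 3.11 CPM (median 2.01) in dysplasia and changed by 1.93 ± 0.39 (adjusted p = 0.00132). Pdcd1, which encodes PD-1, had 2 reads over the 3 normal libraries (0.0542, 0.0563 and 0 CPM) and 0.4 to 2.05 CPM (median 0.934) in dysplasia (adjusted p = 0.000127). For these 6 genes no dysplasia sample overlapped the normal range. Foxp3, the regulator of regulatory T cells, was also called higher. It had 0.108, 0.225 and 0.132 CPM in normal tissue and 0.513 to 1.07 CPM (median 0.749) in dysplasia, without overlap. Its call in the other fits is not given here. T cell and cytotoxic markers gave 6 of 21 higher (median 1.02), but 0 without D02 and 1 without D03, and 2 with the covariate. Cd3g, a chain of the T cell receptor complex, had 0.759, 0.169 and 0.659 CPM in normal tissue and 0.632 to 2.51 CPM (median 1.6) in dysplasia and changed by 1.52 ± 0.41 (adjusted p = 0.00869), with B06 inside the normal range. With the muscle score as a covariate, the call was lost for Cd3g (1.54, adjusted p = 0.0661). A call was lost without one of the samples for Cd3g without D02 (1.11, adjusted p = 0.0997).

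Macrophage and monocyte markers were called at shares close to those over all genes, 13.3% higher and 12.4% lower. The share of neutrophil markers called higher was also close to that over all genes. Of 20 macrophage and monocyte markers 2 were higher (Fcgr1 and Mmp12, 1 without D02) and 3 lower (Cd163, Mertk and Lyve1, 1 without D02 and 0 with the muscle covariate), and the list's summed level overlapped between the groups (353 to 548 CPM in normal tissue, 415 to 533 CPM in dysplasia). Cd163, a scavenger receptor of resident macrophages, had 27.6, 19.8 and 25.5 CPM in normal tissue and 7.27 to 17.6 CPM (median 12.6) in dysplasia and changed by -1 ± 0.22 (adjusted p = 0.00238). Mmp12, the macrophage elastase, had 0.65, 0.169 and 0.572 CPM in normal tissue and 1.65 to 2.93 CPM (median 1.86) in dysplasia and changed by 2.10 ± 0.48 (adjusted p = 0.00312). Both were apart from normal in all 7 samples. Of 17 neutrophil markers only S100a8 and S100a9 were called, and keratinocytes under stress also make both. S100a8 had 2.82, 1.41 and 1.41 CPM in normal tissue and 165 to 584 CPM (median 303) in dysplasia and changed by 7.53 ± 1.54 (adjusted p = 0.0016). Receptors that define neutrophils were not called. Csf3r, the receptor of G-CSF, had 1.73, 0.338 and 0.791 CPM in normal tissue and 0.535 to 6.86 CPM (median 1.29) in dysplasia (log2 fold change 1.23 ± 0.91, adjusted p = 0.338). Cxcr2, a chemokine receptor, had 1.57, 1.13 and 3.21 CPM in normal tissue and 2.01 to 5.11 CPM (median 2.57) in dysplasia (log2 fold change 0.55 ± 0.50, adjusted p = 0.451). Their dysplasia and normal ranges overlapped. The muscle score as a covariate ended the call for Cd163 (-0.78, adjusted p = 0.102).

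Enzymes of glutathione synthesis and NADPH supply were among the NRF2 list members that rose. Of its 32 tested members 17 were higher and 2, Akr1b10 and Fth1, lower (median 0.66), 11 without D02 and 7 with the muscle covariate (lower count 1 without D02 and 1 without D03, and 0 with the covariate), and the summed level was 4410 to 4660 CPM in normal tissue and 5740 to 8250 CPM in dysplasia. Slc7a11, the cystine importer, had 24.7, 14.8 and 18.8 CPM in normal tissue and 159 to 315 CPM (median 229) in dysplasia and changed by 3.62 ± 0.54 (adjusted p = 0.000136). Gclc, the catalytic subunit of the enzyme that starts glutathione synthesis, had 62.7, 45.2 and 42.9 CPM in normal tissue and 183 to 475 CPM (median 277) in dysplasia and changed by 2.58 ± 0.47 (adjusted p = 0.000585). Its modifier subunit Gclm had 67.4, 47.1 and 53.7 CPM in normal tissue and 104 to 186 CPM (median 144) in dysplasia and changed by 1.39 ± 0.26 (adjusted p = 0.000632). All dysplasia samples exceeded all normal samples for these 3 genes. In the pentose phosphate pathway, which supplies NADPH, Pgd had 143, 106 and 136 CPM in normal tissue and 183 to 272 CPM (median 224) in dysplasia and changed by 0.82 ± 0.12 (adjusted p = 6.71e-05). G6pdx, the first enzyme of that pathway, had 158, 121 and 160.2 CPM in normal tissue and 181 to 306 CPM (median 261) in dysplasia and changed by 0.83 ± 0.18 (adjusted p = 0.00216). Tkt, its transketolase, had 113, 95.5 and 109 CPM in normal tissue and 176 to 266 CPM (median 210.5) in dysplasia and changed by 1.01 ± 0.20 (adjusted p = 0.00119). Again no dysplasia value fell within the normal range. Other members did not pass the test. Txnrd1, a thioredoxin reductase, had 111, 94.4 and 113 CPM in normal tissue and 90.3 to 153 CPM (median 106) in dysplasia (log2 fold change 0.08 ± 0.16, adjusted p = 0.748). Hmox1, heme oxygenase, had 98.8, 35.3 and 58.6 CPM in normal tissue and 71.3 to 126 CPM (median 86.6) in dysplasia (log2 fold change 0.53 ± 0.23, adjusted p = 0.0928). Nfe2l2, the gene of NRF2 itself, had 258, 214 and 251 CPM in normal tissue and 242 to 395 CPM (median 323) in dysplasia, a change of 0.41 ± 0.11 (adjusted p = 0.00826) with overlapping ranges. Keap1, its inhibitor, had 65.1, 71.8 and 68.2 CPM in normal tissue and 55.6 to 66.5 CPM (median 62) in dysplasia and was not called (log2 fold change -0.15 ± 0.07, adjusted p = 0.1). In the fit with the muscle score, calls were lost for G6pdx (0.48, adjusted p = 0.143), Tkt (0.61, adjusted p = 0.0863) and Nfe2l2 (0.17, adjusted p = 0.405). Leaving out one sample ended the call for Nfe2l2 without D02 (0.33, adjusted p = 0.122).

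The antioxidant response element, the site that NRF2 binds, was searched as TGACNNNGC on either strand in the same promoter windows. It is present in 12.5% of all 27025 windows, in 8 of 27 NRF2 list members with a window (29.6%), in 5 of 14 members called higher (35.7%) and in 3 of 13 others (23.1%). A match describes the letters and is not a measured binding site. The window of Slc7a11 holds none. The windows of the 3 called members with the smallest adjusted p that hold it are Gclm (chr3:122245307-122245606, plus strand), G6pdx (chrX:74428831-74429130, minus strand) and Ugdh, which encodes UDP-glucose dehydrogenase (chr5:65435793-65436092, minus strand), from RefSeq on GRCm38.p6, with the element in capitals. Ugdh holds 2 elements. It had 32.7, 31.1 and 41 CPM in normal tissue and 47.1 to 60 CPM (median 54.1) in dysplasia and changed by 0.60 ± 0.16 (adjusted p = 0.00722), with no overlap. Its call ended with the muscle covariate (adjusted p = 0.408) and without D02.
Gclm: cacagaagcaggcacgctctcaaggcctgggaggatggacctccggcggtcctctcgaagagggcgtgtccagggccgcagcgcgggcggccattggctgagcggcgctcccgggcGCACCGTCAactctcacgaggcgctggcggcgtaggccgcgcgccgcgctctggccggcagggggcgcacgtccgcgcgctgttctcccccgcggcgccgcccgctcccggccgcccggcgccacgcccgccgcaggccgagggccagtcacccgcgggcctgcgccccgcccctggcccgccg
G6pdx: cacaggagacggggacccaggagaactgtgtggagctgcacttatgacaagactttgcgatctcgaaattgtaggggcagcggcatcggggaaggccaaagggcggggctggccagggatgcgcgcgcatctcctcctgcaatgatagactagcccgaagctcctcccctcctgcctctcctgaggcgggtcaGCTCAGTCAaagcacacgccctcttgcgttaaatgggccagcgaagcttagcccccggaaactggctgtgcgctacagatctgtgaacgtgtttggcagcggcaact
Ugdh: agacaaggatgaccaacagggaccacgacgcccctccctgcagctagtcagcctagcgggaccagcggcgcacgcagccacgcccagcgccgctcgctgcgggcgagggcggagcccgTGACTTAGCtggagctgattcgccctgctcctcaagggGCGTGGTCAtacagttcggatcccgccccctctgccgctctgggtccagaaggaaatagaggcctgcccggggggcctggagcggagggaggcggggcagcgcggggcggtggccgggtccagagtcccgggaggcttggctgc

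Glutathione transferases, which attach glutathione to reactive compounds, were called in both directions. Of 23 tested, 8 were higher (4 without D02 and 4 without D03) and 5 lower: Gstm5, Gstm7, Gstk1, Gstz1 and Mgst3 (1 without D02). With the muscle covariate 3 were higher and 0 lower. Gsta4, whose product clears lipid peroxidation aldehydes, had 262, 206 and 227 CPM in normal tissue and 539.8 to 980.4 CPM (median 665) in dysplasia and changed by 1.62 ± 0.24 (adjusted p = 9.57e-05). Gsta1, of the same class, had 9.27, 10 and 7.83 CPM in normal tissue and 34.4 to 65.1 CPM (median 42.2) in dysplasia and changed by 2.33 ± 0.39 (adjusted p = 0.000328). Gstp1, of the pi class, had 82.3, 92.5 and 89 CPM in normal tissue and 170.0 to 235 CPM (median 189) in dysplasia and changed by 1.18 ± 0.22 (adjusted p = 0.000532). All 3 transferases were above the normal range in every dysplasia sample. Mgst3, a microsomal transferase, was lower: it had 219, 294 and 210.5 CPM in normal tissue and 113 to 161 CPM (median 147) in dysplasia, a change of -0.73 ± 0.15 (adjusted p = 0.00123). The alpha-class and pi-class genes have close paralogs that may share reads. Once the muscle score was in the fit, the test was missed by Mgst3 (-0.26, adjusted p = 0.196).

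Some amino acid supply genes and chaperones were also higher. Of the ATF4 and amino acid response list 9 of 25 were higher and 2, Chac1 and Vldlr, lower (median 0.26), against 13.3% and 12.4% over all genes. The list gave 4 higher without D02, and 4 higher and 1 lower with the muscle covariate. Phgdh, the first enzyme of serine synthesis, had 61.2, 46 and 47.9 CPM in normal tissue and 79.7 to 105 CPM (median 93.4) in dysplasia and changed by 0.87 ± 0.11 (adjusted p = 1.28e-05). Slc7a1, an arginine and lysine transporter, had 78.8, 52.3 and 50.3 CPM in normal tissue and 109.5 to 168 CPM (median 132) in dysplasia and changed by 1.18 ± 0.17 (adjusted p = 8.73e-05). Aldh1l2, a mitochondrial folate enzyme, had 49.9, 24.7 and 29.3 CPM in normal tissue and 63.6 to 79.3 CPM (median 68.1) in dysplasia and changed by 1.03 ± 0.18 (adjusted p = 0.000392). All 3 rose in every dysplasia sample beyond the normal range. Atf4, the factor itself, which is mainly controlled at translation, had 221, 228 and 192 CPM in normal tissue and 194 to 241 CPM (median 212) in dysplasia (log2 fold change -0.01 ± 0.08, adjusted p = 0.972). Hspa1b, an inducible HSP70 chaperone, had 61.6, 54.4 and 56.2 CPM in normal tissue and 112 to 181 CPM (median 142) in dysplasia and changed by 1.30 ± 0.19 (adjusted p = 7.58e-05). Hspa5, the HSP70 of the endoplasmic reticulum, had 249.8, 322 and 389 CPM in normal tissue and 498 to 689 CPM (median 532) in dysplasia and changed by 0.79 ± 0.18 (adjusted p = 0.00253). Hspb7, a small heat shock protein of muscle, had 508, 702 and 575 CPM in normal tissue and 201 to 346 CPM (median 314) in dysplasia and changed by -0.998 ± 0.20 (adjusted p = 0.00138). Of 22 heat shock and chaperone genes 6 were higher and 4 lower, against 13.3% and 12.4% over all genes. The lower ones were Hspb2, Hspb6, Hspb7 and Cryab. In this list 4 were higher and 1 lower without D02, and 2 and 0 with the muscle covariate. Calls that ended with the muscle score as a covariate were those of Hspb7 (-0.45, adjusted p = 0.18).

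**Figure D4:**
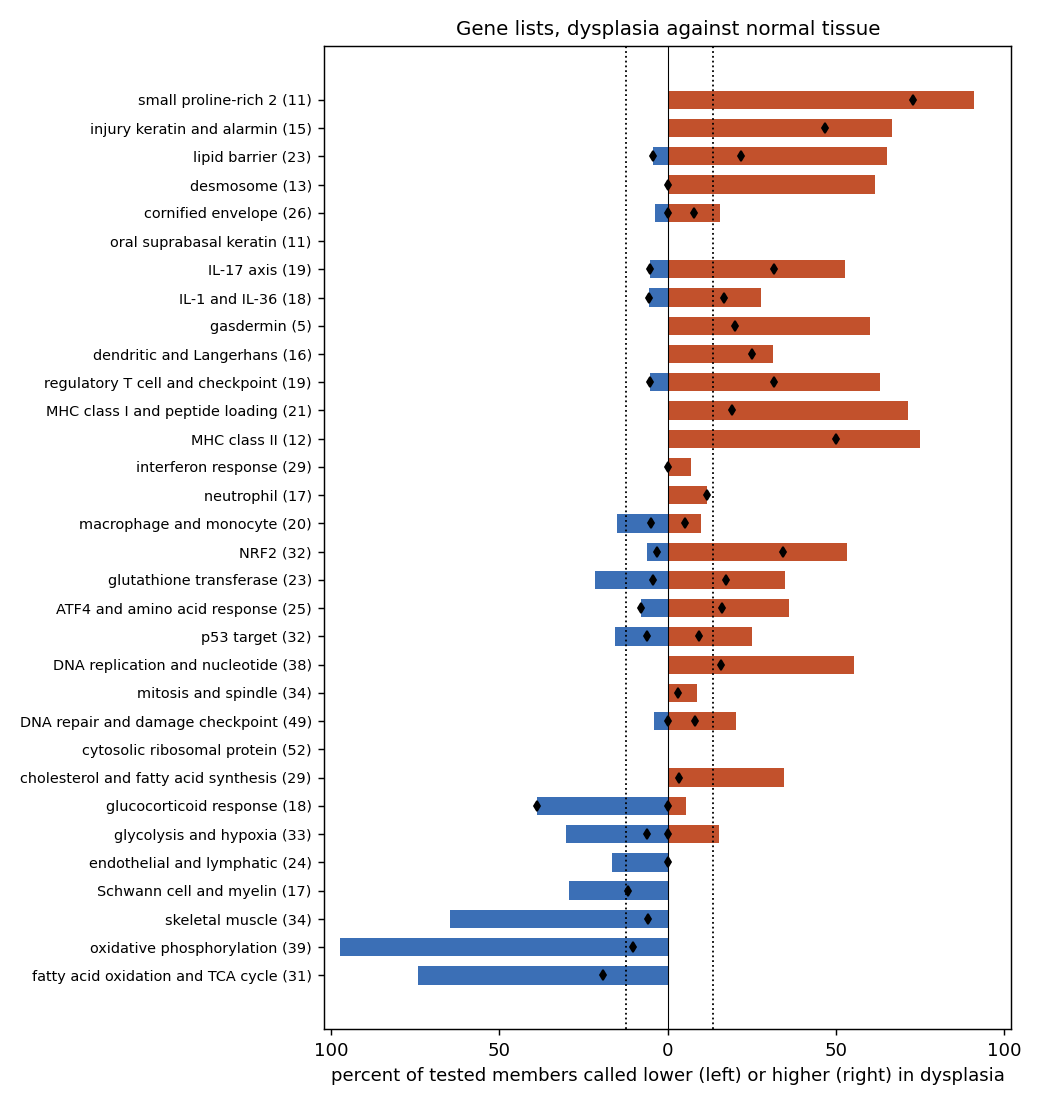
Percent of the tested members (number in brackets) of 32 gene lists called higher in dysplasia (right) or lower (left). Dotted lines mark the shares over all genes, 13.3% higher and 12.4% lower, and black diamonds the share without the normal sample D02. The Sprr2, MHC class II and injury lists stay well beyond the line without D02, and the diamonds of the muscle and oxidative phosphorylation lists move toward 0.

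Many DNA replication genes and few mitosis genes were called higher, against 13.3% of all genes, and both counts depended on single normal samples. Of 38 replication and nucleotide supply genes 21 were higher and none lower (median 0.46), but 6 without D02 and 2 with the muscle covariate. Mcm5, a subunit of the replicative helicase, had 11.4, 9.07 and 13.3 CPM in normal tissue and 19.7 to 36.2 CPM (median 26.8) in dysplasia and changed by 1.29 ± 0.21 (adjusted p = 0.000241). Mcm3, another subunit, had 10.8, 7.6 and 9.63 CPM in normal tissue and 15.2 to 21.1 CPM (median 19.7) in dysplasia and changed by 1.02 ± 0.18 (adjusted p = 0.000333). Both were higher in all 7 dysplasia samples than in any normal sample. Of 34 mitosis and spindle genes 3 were higher, Mki67, Bub1b and Mybl2 (median 0.26), and that count was 1 without D02, 10 without D03 and 6 without B01, and 0 with the muscle covariate. Mybl2, a transcription factor of cycling cells, had 3.25, 3.04 and 3.69 CPM in normal tissue and 5.55 to 11.1 CPM (median 8.04) in dysplasia and changed by 1.29 ± 0.24 (adjusted p = 0.000739). Cdk1, the mitotic kinase, had 15.2, 21.2 and 26.3 CPM in normal tissue and 21.9 to 25.1 CPM (median 23.1) in dysplasia (log2 fold change 0.15 ± 0.17, adjusted p = 0.554). Among 49 DNA repair and checkpoint genes 10 were higher and 2, Xrcc3 and Ung, lower. Without D02 4 were higher and 0 lower, with the muscle covariate 1 and 0, and the lower count was 1 without D01, D03, B04 or B06. Exo1, a repair and replication exonuclease, had 1.63, 1.52 and 2.07 CPM in normal tissue and 3.11 to 5.25 CPM (median 4.1) in dysplasia and changed by 1.22 ± 0.23 (adjusted p = 0.000583). Chek1, the kinase of the replication checkpoint, had 1.57, 1.58 and 2.02 CPM in normal tissue and 2.32 to 4.5 CPM (median 3.98) in dysplasia and changed by 1.11 ± 0.23 (adjusted p = 0.00126). Both were clear of the normal values in all 7 samples. With the muscle score as a covariate, the call was lost for Mybl2 (0.75, adjusted p = 0.0548) and Chek1 (0.81, adjusted p = 0.0606).

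Tumor suppressor transcripts did not move together. Cdkn2a, which encodes the inhibitors p16INK4a and p19ARF, had 10 reads over the 3 normal libraries (0.217, 0.113 and 0.176 CPM) and 1.57 to 3.88 CPM (median 3.08) in dysplasia, a change of 4.06 ± 0.60 (adjusted p = 9.45e-05). Trp53, the p53 gene, had 37.1, 38 and 44.1 CPM in normal tissue and 51.5 to 60.9 CPM (median 56.5) in dysplasia and changed by 0.49 ± 0.09 (adjusted p = 0.00085). In the p53 target list 8 of 32 were higher (3 without D02 and 4 without D03) and 5 lower, Ccng1, Phlda3, Sesn1, Fas and Rrm2b (3 without D01 and 2 without D02), with a median of 0.21. With the muscle covariate 1 was higher and 1 lower. Over all genes 13.3% were called higher and 12.4% lower in the main fit. Pmaip1, a p53 target that promotes apoptosis, had 1.19, 0.451 and 0.835 CPM in normal tissue and 2.5 to 4.96 CPM (median 3.06) in dysplasia and changed by 2.12 ± 0.44 (adjusted p = 0.00157). Sesn1, a p53-induced sestrin, had 143, 86.8 and 86.7 CPM in normal tissue and 57.5 to 82.8 CPM (median 70.1) in dysplasia and changed by -0.61 ± 0.12 (adjusted p = 0.00092). Ccng1, an early p53 target, had 334, 526 and 467 CPM in normal tissue and 211 to 329.8 CPM (median 271) in dysplasia and changed by -0.71 ± 0.15 (adjusted p = 0.00208). Cdkn2a, Trp53 and Pmaip1 were above, and Sesn1 and Ccng1 below, the normal range in all dysplasia samples. Cdkn1a, the inhibitor p21, had 367, 312 and 372 CPM in normal tissue and 215 to 344 CPM (median 310.0) in dysplasia (log2 fold change -0.22 ± 0.14, adjusted p = 0.263). Mdm2, the p53 ubiquitin ligase, had 45.6, 52.5 and 48.7 CPM in normal tissue and 42.6 to 45.7 CPM (median 44.4) in dysplasia (log2 fold change -0.14 ± 0.06, adjusted p = 0.101). Neither was called. Ccnd1, the G1 cyclin D1, had 69.8, 69.3 and 71 CPM in normal tissue and 100.5 to 149 CPM (median 106) in dysplasia and changed by 0.69 ± 0.15 (adjusted p = 0.0021). The muscle score as a covariate ended the call for Trp53 (0.33, adjusted p = 0.0551), Ccng1 (-0.26, adjusted p = 0.244) and Ccnd1 (0.37, adjusted p = 0.158). The log2 fold change moved to -0.32 for Sesn1 without D01.

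Most members of the oxidative phosphorylation, fatty acid oxidation and skeletal muscle lists were lower in dysplasia. No member of the oxidative phosphorylation or fatty acid oxidation lists was called with the muscle covariate. Of 39 nuclear oxidative phosphorylation genes 38 were lower (median -0.54), 4 without D02 and 0 with the muscle covariate. Fatty acid oxidation and TCA cycle genes gave 23 of 31 lower, 6 without D02 and 0 with the covariate. Skeletal muscle genes gave 22 of 34 lower, 2 and 0 under the same settings. The covariate is the mean level of this same muscle list, Mb included, so the loss of its calls in that fit was built in. Mb, the oxygen store myoglobin, had 4385, 6685 and 5485 CPM in normal tissue and 2144 to 3431 CPM (median 3012) in dysplasia and changed by -0.93 ± 0.20 (adjusted p = 0.00175). Cox6c, a subunit of cytochrome oxidase, had 348, 500.4 and 396 CPM in normal tissue and 228 to 298 CPM (median 276) in dysplasia and changed by -0.60 ± 0.12 (adjusted p = 0.00152). Egln1, an oxygen sensor that marks HIF proteins for decay, had 233, 335 and 288 CPM in normal tissue and 148 to 206 CPM (median 184) in dysplasia and changed by -0.65 ± 0.13 (adjusted p = 0.000986). All 3 were lower in every dysplasia sample than in every normal sample. The 52 tested cytosolic ribosomal protein genes, a set active in all cells, gave no call by edgeR, DESeq2 or limma-voom in either direction, and 1 was higher at an unadjusted p under 0.05. In the fit with the muscle score, calls were lost for Mb (-0.29, adjusted p = 0.238), Cox6c (-0.23, adjusted p = 0.211) and Egln1 (-0.35, adjusted p = 0.111).

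A smaller set of lower genes kept its call in the fit with the muscle score. Zbtb16, a transcription factor that glucocorticoids induce, had 87.2, 43.2 and 34.2 CPM in normal tissue and 13.2 to 30.1 CPM (median 17.3) in dysplasia and changed by -1.57 ± 0.24 (adjusted p = 0.000164). Fkbp5, another glucocorticoid target and a chaperone of the receptor, had 132, 30.1 and 26.7 CPM in normal tissue and 15.5 to 24.9 CPM (median 18.3) in dysplasia and changed by -1.71 ± 0.31 (adjusted p = 0.000543). D01 was the highest sample for both, and for Fkbp5 it stood far above the other two normal samples. Glucocorticoid response genes as a list gave 7 of 18 lower and 1, Mt2, higher (median -0.55), with 4 without D01 and 3 with the muscle covariate. The higher count was 0 without D01, 0 without D02, 0 without D03, 2 without B01 and 0 without B03, and 0 with the covariate. St3gal5, which makes the ganglioside GM3, had 34.1, 12.8 and 10.6 CPM in normal tissue and 3.32 to 9.04 CPM (median 6.2) in dysplasia and changed by -1.66 ± 0.30 (adjusted p = 0.000489). Klk1b26, a tissue kallikrein with many close paralogs, had 21.2, 21.2 and 65.5 CPM in normal tissue and 8.57 to 15.2 CPM (median 10.9) in dysplasia and changed by -1.70 ± 0.26 (adjusted p = 0.000123). Bnip3, a mitophagy receptor induced by hypoxia, had 219, 214 and 171 CPM in normal tissue and 92.7 to 132 CPM (median 127) in dysplasia and changed by -0.74 ± 0.12 (adjusted p = 0.000241). Every dysplasia value of these 3 lay below every normal value. Serpinb6b, a serine protease inhibitor, had 7.86, 9.4 and 5.98 CPM in normal tissue and 2.41 to 6.79 CPM (median 3.81) in dysplasia and changed by -0.96 ± 0.21 (adjusted p = 0.00188). Its B05 value lay above that of D03. One left-out sample was enough to end the call for Fkbp5 without D01 (-0.57, adjusted p = 0.0848). The log2 fold change moved to -0.57 for Fkbp5 without D01, -0.94 for St3gal5 without D01 and -0.94 for Klk1b26 without D03.

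By edgeR the called vessel and nerve genes were all lower in dysplasia. The share of vessel genes called lower was near the 12.4% over all genes. Few matrix genes were called, against 13.3% of all genes called higher and 12.4% lower. Of 24 endothelial and lymphatic genes 4 were lower (Pecam1, Flt1, Esam and Lyve1) and none higher, with 2 without D01 and 0 without D02, and 0 with the muscle covariate (median -0.19, and 0.13 with the covariate). DESeq2 and limma-voom each called 6 of them lower and 1 higher. Of 17 Schwann cell and myelin genes 5 were lower, Mbp, Pmp22, Prx, Ncmap and S100b (median -0.58), with 1 without D01, 2 without D02, 3 without B02, 3 without B03, 3 without B04 and 8 without B05, and 0 with the muscle covariate. Mbp, a myelin protein, had 189, 168 and 122 CPM in normal tissue and 81.3 to 127 CPM (median 93.4) in dysplasia and changed by -0.72 ± 0.16 (adjusted p = 0.00249). Of 32 fibroblast and collagen genes 1, Col7a1, was higher and 2, Dcn and Dpt, were lower. The higher count was 0 without D02, the lower count 1 without D01 and 5 without B01, and both 0 with the muscle covariate. Dpt, the matrix protein dermatopontin, had 136, 135 and 147 CPM in normal tissue and 76.2 to 117 CPM (median 84.9) in dysplasia and changed by -0.63 ± 0.18 (adjusted p = 0.0121). Smad3, a mediator of TGF-beta signals, had 70.4, 74.9 and 71.3 CPM in normal tissue and 46.3 to 60.5 CPM (median 49.1) in dysplasia and changed by -0.48 ± 0.12 (adjusted p = 0.0044). Dpt and Smad3 were lower in all 7 dysplasia samples than in any normal sample, and for Mbp the dysplasia sample B05 lay above the normal sample D03. Once the muscle score was in the fit, the test was missed by Mbp (-0.46, adjusted p = 0.179), Dpt (-0.16, adjusted p = 0.659) and Smad3 (-0.36, adjusted p = 0.154).

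Direct tests against hyperplasia, the stage before, gave fewer calls. Of 17638 genes 914 were called (5.18%), 527 higher in dysplasia (2.99%) and 387 lower (2.19%). With upper-quartile factors the split turned, to 322 higher and 465 lower. Of 29 interferon response genes 23 were lower in dysplasia than in hyperplasia and 0 higher (median log2 fold change -1.13), 17 to 26 lower with any of the 15 samples left out and 17 with the muscle covariate. Isg15 had 25.9 to 63.7 CPM (median 58) in hyperplasia against the dysplasia values above, a difference of -1.71 ± 0.34 (adjusted p = 0.00342). Irf7, a transcription factor of the interferon response, had 17.7 to 41.3 CPM (median 36.7) in hyperplasia and 6.97 to 27.4 CPM (median 13.6) in dysplasia (log2 fold change -1.37 ± 0.26, adjusted p = 0.00192). Foxp3, the regulator of regulatory T cells, had 1.29 to 3.21 CPM (median 1.96) in hyperplasia and 0.513 to 1.07 CPM (median 0.749) in dysplasia (log2 fold change -1.38 ± 0.23, adjusted p = 0.000483), and those ranges did not overlap. Of 32 p53 targets 13 were lower in dysplasia than in hyperplasia (11 to 13 with any sample left out), Pmaip1 among them, which had 7.04 to 9.74 CPM (median 9.02) in hyperplasia (log2 fold change -1.30 ± 0.27, adjusted p = 0.0044). The neuronal adhesion gene Igsf9b had 8.24 to 12.5 CPM (median 10.7) in hyperplasia, 2.65 to 3.84 CPM (median 3.57) in dysplasia (log2 fold change -1.63 ± 0.20, adjusted p = 5.12e-06), again without overlap. The calls of these 5 genes held with each of the 15 samples left out in turn and with the muscle covariate.

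Genes higher in dysplasia than in hyperplasia included chaperones, an epidermal keratin and a defensin. Hspa1b had 59.2 to 84.9 CPM (median 70) in hyperplasia, below the dysplasia range, a difference of 0.998 ± 0.13 (adjusted p = 1.78e-05). Hspa5 had 304 to 455 CPM (median 323) in hyperplasia (log2 fold change 0.72 ± 0.13, adjusted p = 0.000875). In all, 8 of 22 heat shock and chaperone genes were higher, 5 to 8 with any sample left out (5 without A01, A04, B02, B04 or B06). Krt1, the suprabasal keratin of skin, had 12.9 to 96.9 CPM (median 34.8) in hyperplasia and 40.3 to 362 CPM (median 180.0) in dysplasia (log2 fold change 2.21 ± 0.42, adjusted p = 0.00268). Zc3h12a had 18.6 to 62.4 CPM (median 34.5) in hyperplasia (log2 fold change 1.24 ± 0.22, adjusted p = 0.00136). Defb3, an antimicrobial beta-defensin of epithelium, had 3.86 to 76 CPM (median 11.1) in hyperplasia and 55.2 to 188 CPM (median 126) in dysplasia (log2 fold change 2.53 ± 0.52, adjusted p = 0.00489). The calls of these 5 genes held with each of the 15 samples left out in turn and with the muscle covariate. Klk1 gave the largest difference (log2 5.48 ± 1.32) among those 6 genes, but it was not called without B05 or with the muscle covariate.

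**Figure D5:**
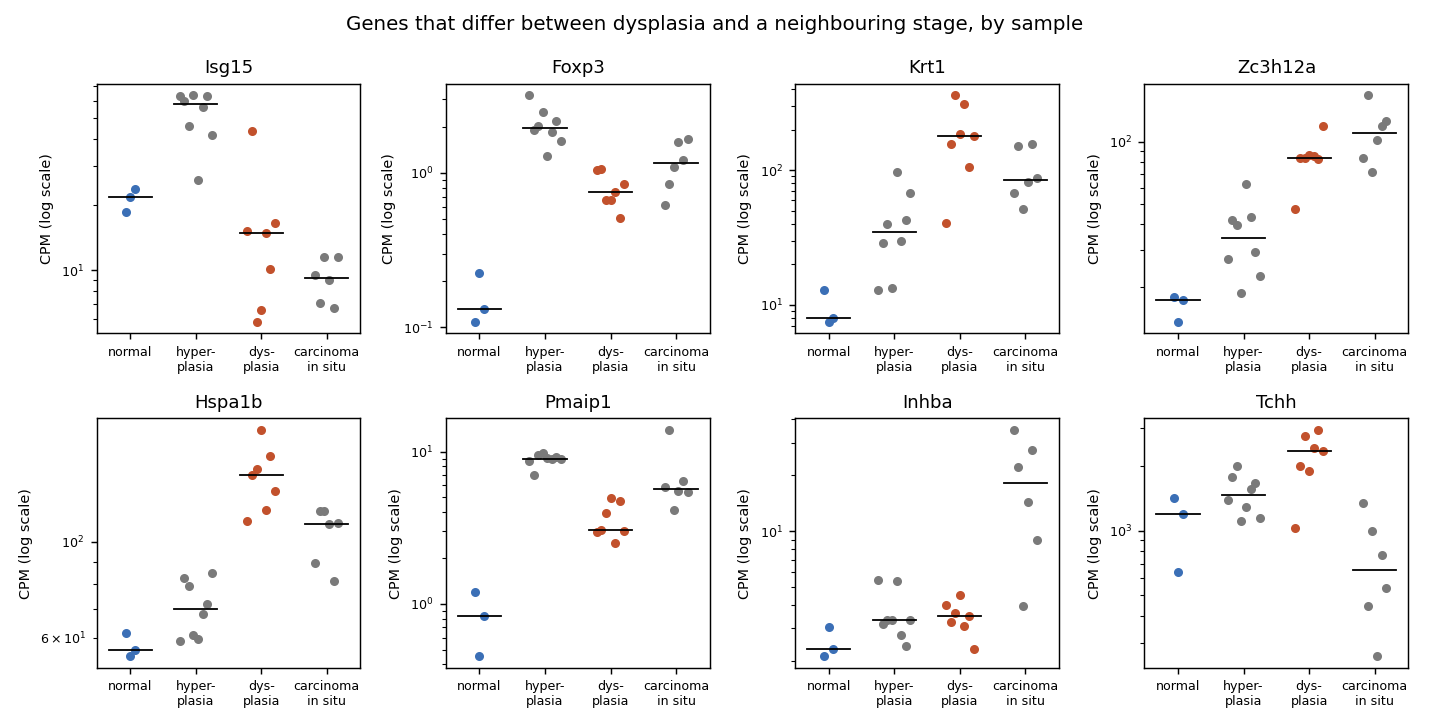
Level of 8 genes in each sample of 4 stages on logarithmic CPM axes, with the median of a stage as a line (normal n = 3, hyperplasia n = 8, dysplasia n = 7, carcinoma in situ n = 6). Isg15, Foxp3 and Pmaip1 are lower in dysplasia than in hyperplasia, Krt1, Zc3h12a and Hspa1b higher, and Inhba is higher and Tchh lower in carcinoma in situ than in dysplasia.

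Carcinoma in situ, the stage after, differed from dysplasia in 964 genes (5.47%), 528 higher in the carcinoma (2.99%) and 436 lower (2.47%), or 729 and 347 with upper-quartile factors. Genes of invasion and inflammation were among those higher in the carcinoma. Inhba, a subunit of activin, had 2.31 to 4.56 CPM (median 3.47) in dysplasia and 3.93 to 35.2 CPM (median 18.2) in carcinoma in situ, a difference of 2.42 ± 0.42 (adjusted p = 0.00666), and the ranges overlapped in part. Mmp3, the matrix protease stromelysin-1, had 3.48 to 11.7 CPM (median 4.89) and 6.08 to 71.5 CPM (median 40.4) (log2 fold change 2.61 ± 0.53, adjusted p = 0.0104). Of 33 invasion protease and laminin genes 13 were higher in carcinoma in situ (9 to 18 with any sample left out). Il1b, a cytokine, had 1.6 to 4.89 CPM (median 2.53) in dysplasia and 4.2 to 41 CPM (median 16.5) in the carcinoma (log2 fold change 2.75 ± 0.52, adjusted p = 0.00832). Cdkn2a had 3.23 to 18.5 CPM (median 11.2) in the carcinoma against the dysplasia values above (log2 fold change 1.82 ± 0.31, adjusted p = 0.00496). Tchh, a protein of filiform papillae and hair follicles, had 1024 to 2933 CPM (median 2345) in dysplasia and 261 to 1347 CPM (median 656) in carcinoma in situ (log2 fold change -1.59 ± 0.34, adjusted p = 0.0117). The calls of Inhba, Mmp3, Il1b, Cdkn2a and Tchh held with each of the 13 samples left out in turn, while the count of all calls ran from 164 without C07 to 2201 without C04.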

How the data were processed

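RNA was sequenced from libraries made with the TruSeq stranded mRNA kit, per the labels' protocols. The deposited file holds raw whole-number read counts per Ensembl gene for all 30 samples. The submitters' processing notes name GRCm38, cutadapt 2.4 and STAR 2.7.2a. The sources used here do not give the program that counted reads, whether it used strand, or the gene models, so reads of overlapping or antisense genes may not be separated. Symbols and positions come from GENCODE M21 (GRCm38), which matched 99.53% of the identifiers.

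Genes were filtered with filterByExpr by stage, scaled by TMM and tested with edgeR 4.0.16 (R 4.3.3) in a quasi-likelihood fit over the 30 samples with 1 mean per stage, so all stages share the estimate of spread. Adjusted p-values are Benjamini-Hochberg over 17638 genes in each of 3 contrasts. Standard errors were computed from the fold change and the F statistic. Scripts were tested on simulated counts. Alternatives used other scaling, no filter, limma-voom (limma 3.58.1), DESeq2 1.42.0, covariates, a replicate block and each sample left out.

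Genes named are taken from the largest changes, the smallest adjusted p-values and, within lists, the called members with the smallest adjusted p and the first member. Il17f, Il2ra, Cxcr2, Gclc, Gclm, G6pdx, Tkt, Txnrd1, Hmox1, Nfe2l2, Keap1, Ugdh, Cdk1, Cdkn1a, Mdm2, Irf7 and Inhba fall outside this rule and were chosen after their values were seen, as were the members named to explain a small count. The comparison and the gene lists were chosen with earlier results of these data known. Some genes are not reported here.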

Additional observations from a re-analysis of the deposited data

Results flagged for a closer look

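In 19 of 118 genes checked, 1 of the 7 dysplasia samples stood apart from the other 6 on a log2 scale (gap to the nearest value over the whole range above Dixon's critical value). Chance flags about 1 group in 20, and the genes are not independent of each other. B01 was the lowest for 14 of them. Among the dysplasia samples it had the most salivary (45000 CPM) and skeletal muscle transcripts (67300 CPM) and the least basal keratinocyte (6470 CPM) and oral suprabasal keratin transcripts (33700 CPM). Among keratinocyte genes these were Krt13 (ratio 0.688, 19300 CPM against 26900 in the nearest sample), Elovl1 (0.665), Tgm1 (0.599), Dsg3 (0.589), Trp63 (0.781, 188 against 267 CPM), Klk14 (0.598) and Tchh (0.583). Among sensing and cytokine genes they were Nod2 (0.626), Il17f (0.58), Il12b (0.64), Zc3h12a (0.609, 47.1 against 82.8 CPM) and Casp1 (0.619), and the others were G6pdx (0.661) and Cdkn1a (0.635). B01 was the highest for Mmp12 (0.582, 2.93 against 2.1 CPM) and Hspa5 (0.667, 689 against 555 CPM). B06, the dysplasia sample with the fewest salivary (35.1 CPM) and muscle transcripts (37100 CPM), was the lowest for Ccl22 (0.742, 2.72 against 5.37 CPM), Havcr2 (0.599) and Bnip3 (0.587). The part of tissue makeup in these values was not tested.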

How the results depend on the processing

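No gene called in dysplasia against normal tissue was called in the opposite direction under any setting run. The 4540 calls became 155 when tested against a fold of 1.5 (glmTreat), 589 with the muscle covariate, 6865 with limma-voom and 2004 at an adjusted p under 0.01, and 1282 (without D02) to 5308 (without B01) with 1 sample left out. DESeq2 called 4925, the fit without an expression filter 3326 and the fit without D01 and B01, added after seeing the data, 4818. The 914 calls against hyperplasia became 28 (glmTreat), 473 (no filter), 539 (muscle covariate), 2057 (only the 2 stages), 3600 (limma-voom) and 301 (adjusted p under 0.01), and 507 (without A04) to 1486 (without B01) with 1 sample left out. The 964 calls of carcinoma in situ against dysplasia became 0 with edgeR's glmTreat (389 at an unadjusted p under 0.05), 327 (no filter), 2503 (muscle covariate), 200 (only the 2 stages), 2270 (limma-voom), 1537 (DESeq2) and 62 (adjusted p under 0.01), and 164 (without C07) to 2201 (without C04). The cause of these shifts was not tested.

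Whether the sample numbers pair the groups cannot be decided from so few samples. Deviations of same-numbered normal and dysplasia samples correlated at 0.512, -0.024 and 0.058. The first pair, D01 and B01, had the most salivary transcripts of their groups (19300 and 45000 CPM). Of the 3 normal samples, 1 correlated best with the dysplasia sample of its own number. With a replicate block on that number, 4218, 1178 and 282 genes were called in the 3 contrasts, in the order above. No samples were identical.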
